A study of Mus musculus with 18 samples.

Results

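Cdx1, Cdx2, Nkx1-2, Sp5, Sp8, Eomes and Mixl1 are 7 transcription factors of the caudal embryo and the primitive streak. They were taken as a named list, chosen with earlier results of these data known, and each is read by 1 probe set with a single gene symbol, so 7 of 19938 measured genes are described here. The study put RNA from 18 mouse cell samples on single-colour Affymetrix arrays, 1 array per sample. The series asks what mutations of Apc do to gene expression in different cell types, and what an inducible mutant of beta-catenin does in embryonic stem cells (ESCs) and embryonic fibroblasts (MEFs).

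The arrays hold 3 lines of reprogrammed colon tumour cells (RTCs), which are tumour cells brought to a pluripotent state by induced pluripotent stem cell methods, and 2 derivatives: clone #45 goes back to RTC 1 and clone #9 to RTC 3. There is 1 array each of Apc Min/Min, Apc Min/+ and Apc +/+ ESCs. Min is a truncating allele of Apc. Small intestinal organoids grown from #45 were measured with and without 4-hydroxytamoxifen (4-OHT, 1 uM for 2 days), 1 array each, and MEFs derived from #45 with and without 4-OHT (2 ug/ml for 2 days), 2 arrays each. S33 ESCs and S33 MEFs were measured with and without doxycycline (dox), 1 array each. The labels do not give the Apc state of RTCs and derivatives, what 4-OHT switches, what S33 stands for, or a dose of dox. As background not stated in the labels, RTCs are taken as Apc-mutant and the derivatives as RTCs with Apc function restored. S33 ESCs without dox are grouped here with Apc-competent cells, which the labels do not state either. The growth protocol names a medium with FGF4 for trophoblast stem cells and for Min/Min ESCs, whereas RTCs and ESCs are listed with LIF. The array titles do not say which medium the Min/Min array came from, so Apc genotype and medium cannot be told apart on it. Organoids and MEFs all go back to the single clone #45, and organoid medium contained R-spondin, which amplifies Wnt signals.

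Without Apc, beta-catenin escapes breakdown, enters the nucleus and activates genes with TCF and LEF factors. In the gastrulating embryo this pathway forms the primitive streak, where mesoderm and endoderm arise, and keeps the tail end of the embryo growing. Cdx1 and Cdx2 are caudal homeobox factors that pattern the posterior body and later specify and maintain intestinal epithelium, and Cdx2 also acts in trophoblast. Nkx1-2 is a homeobox factor of the caudal epiblast next to the streak. Sp5 and Sp8 are zinc finger factors, both known as effectors of Wnt signalling in the caudal embryo, and Sp5 is a direct Wnt target. Eomes is a T-box factor of the streak, of trophoblast and of cytotoxic lymphocytes. Mixl1 is a homeobox factor of streak mesoderm and endoderm.

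In GRCm38.p6 Cdx2 lies at chr5:147300900-147307249, Nkx1-2 at chr7:132596239-132599637 and Sp5 at chr2:70474923-70477726. Sp8 lies at chr12:118846288-118852578, Eomes at chr9:118478186-118486132 and Mixl1 at chr1:180693043-180697034. Each probe set stands for the gene as a whole, and its place within the exons is not used here.

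The DNA just before the transcription starts of the factors that differ below is shown first, since TCF and LEF factors bind a short word of DNA that can be searched for by its letters. RefSeq starts (GRCm38.p6) were given for 5 of the 7 factors, with 7 starts in all. The search covered the 250 bases before each start on both strands for the word CTTTGAA, for CTTTGAT, for CTTTGTA and for CTTTGTT, of which only one can match at a given position. Capitals mark a match. The stretches are chr2:70474673-70474922 (plus strand) for Sp5, chr5:147307250-147307499 (minus strand) for Cdx2, chr7:132599638-132599887 (minus strand) for Nkx1-2 and chr9:118477939-118478188 (plus strand) for Eomes, each written 5′ to 3′ along the gene.
Sp5: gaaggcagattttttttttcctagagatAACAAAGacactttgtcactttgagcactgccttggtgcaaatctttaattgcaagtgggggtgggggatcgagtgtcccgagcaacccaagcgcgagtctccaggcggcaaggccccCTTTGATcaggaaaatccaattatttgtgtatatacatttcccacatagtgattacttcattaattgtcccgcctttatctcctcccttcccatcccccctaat
Cdx2: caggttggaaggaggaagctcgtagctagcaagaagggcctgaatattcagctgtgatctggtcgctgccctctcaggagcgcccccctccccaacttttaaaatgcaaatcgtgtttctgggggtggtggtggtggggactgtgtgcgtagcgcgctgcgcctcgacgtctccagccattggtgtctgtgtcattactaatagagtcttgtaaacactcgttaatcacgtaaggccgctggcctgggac
Nkx1-2: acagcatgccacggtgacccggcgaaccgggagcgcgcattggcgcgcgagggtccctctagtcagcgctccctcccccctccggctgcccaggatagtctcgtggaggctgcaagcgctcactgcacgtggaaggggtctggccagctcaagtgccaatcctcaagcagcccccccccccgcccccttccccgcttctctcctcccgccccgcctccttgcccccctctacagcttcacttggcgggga
Eomes: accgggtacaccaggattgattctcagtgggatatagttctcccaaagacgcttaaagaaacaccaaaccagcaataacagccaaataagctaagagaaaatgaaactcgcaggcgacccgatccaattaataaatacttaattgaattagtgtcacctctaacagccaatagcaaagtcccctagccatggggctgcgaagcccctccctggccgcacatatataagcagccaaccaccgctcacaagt
Sp5 held 2 matches, which begin 222 and 104 bases before the start. Over 32851 starts searched, 14.8% had at least 1 match and 1.43% at least 2. Cdx2, Nkx1-2 and Eomes had 0 in these windows. Sp8 had 1 match, 51 bases before the second of its 3 listed starts. Cdx1 and Mixl1 are named only. A match is a description of letters and not a measured binding site, and 0 matches says only that these letters are not in the window.

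Levels are given as log2 intensity after joint quantile normalization of the 18 arrays, a scale on which each array's median is 7.93. A probe set's level is compared between arrays and not with another probe set. The labelled cell types matched their markers: the mean level of 7 pluripotency markers was 12.53 to 12.86 on the 10 arrays of RTCs, derivatives and ESCs and 6.59 to 6.95 elsewhere. The mean of 8 gut markers was 12.61 and 12.67 in organoids with and without 4-OHT, 7.77 to 7.87 in RTCs and 6.62 to 6.71 in MEFs of #45. The 7 fibroblast markers averaged 12.06 to 12.72 in MEFs, but also 8.56 to 10.61 in pluripotent cells. A mean of 6 immune markers was 11.45 and 11.56 in the first pair of MEF arrays, 8.77 and 9.03 in the second, 10.12 and 10.14 in RTC 2 and RTC 3, 9.02 in RTC 1, and 9.46 and 8.72 in #45 and #9; its part in the results was not tested. Means of 4 neural markers were 7.15 to 7.27 in RTCs and 7.02 in Apc Min/Min ESCs, against 8.99 and 8.94 in #45 and #9 and 8.17 to 8.58 in other ESCs. Deposited medians were 142 to 317, and identical intensities recurred within some sets of arrays, 19.2% of probe sets in the second MEF pair, so the deposited scale is not shared by all arrays. Some of these sets crossed the groups compared. Apc Min/Min and Apc +/+ ESCs shared 17.3%, and #9 shared 11.7% and 9.52% with the second MEF arrays without and with 4-OHT. The part of this sharing in the results was not tested. In these cultures a smaller share of expressing cells and less RNA per cell cannot be told apart.

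**Figure D1:**
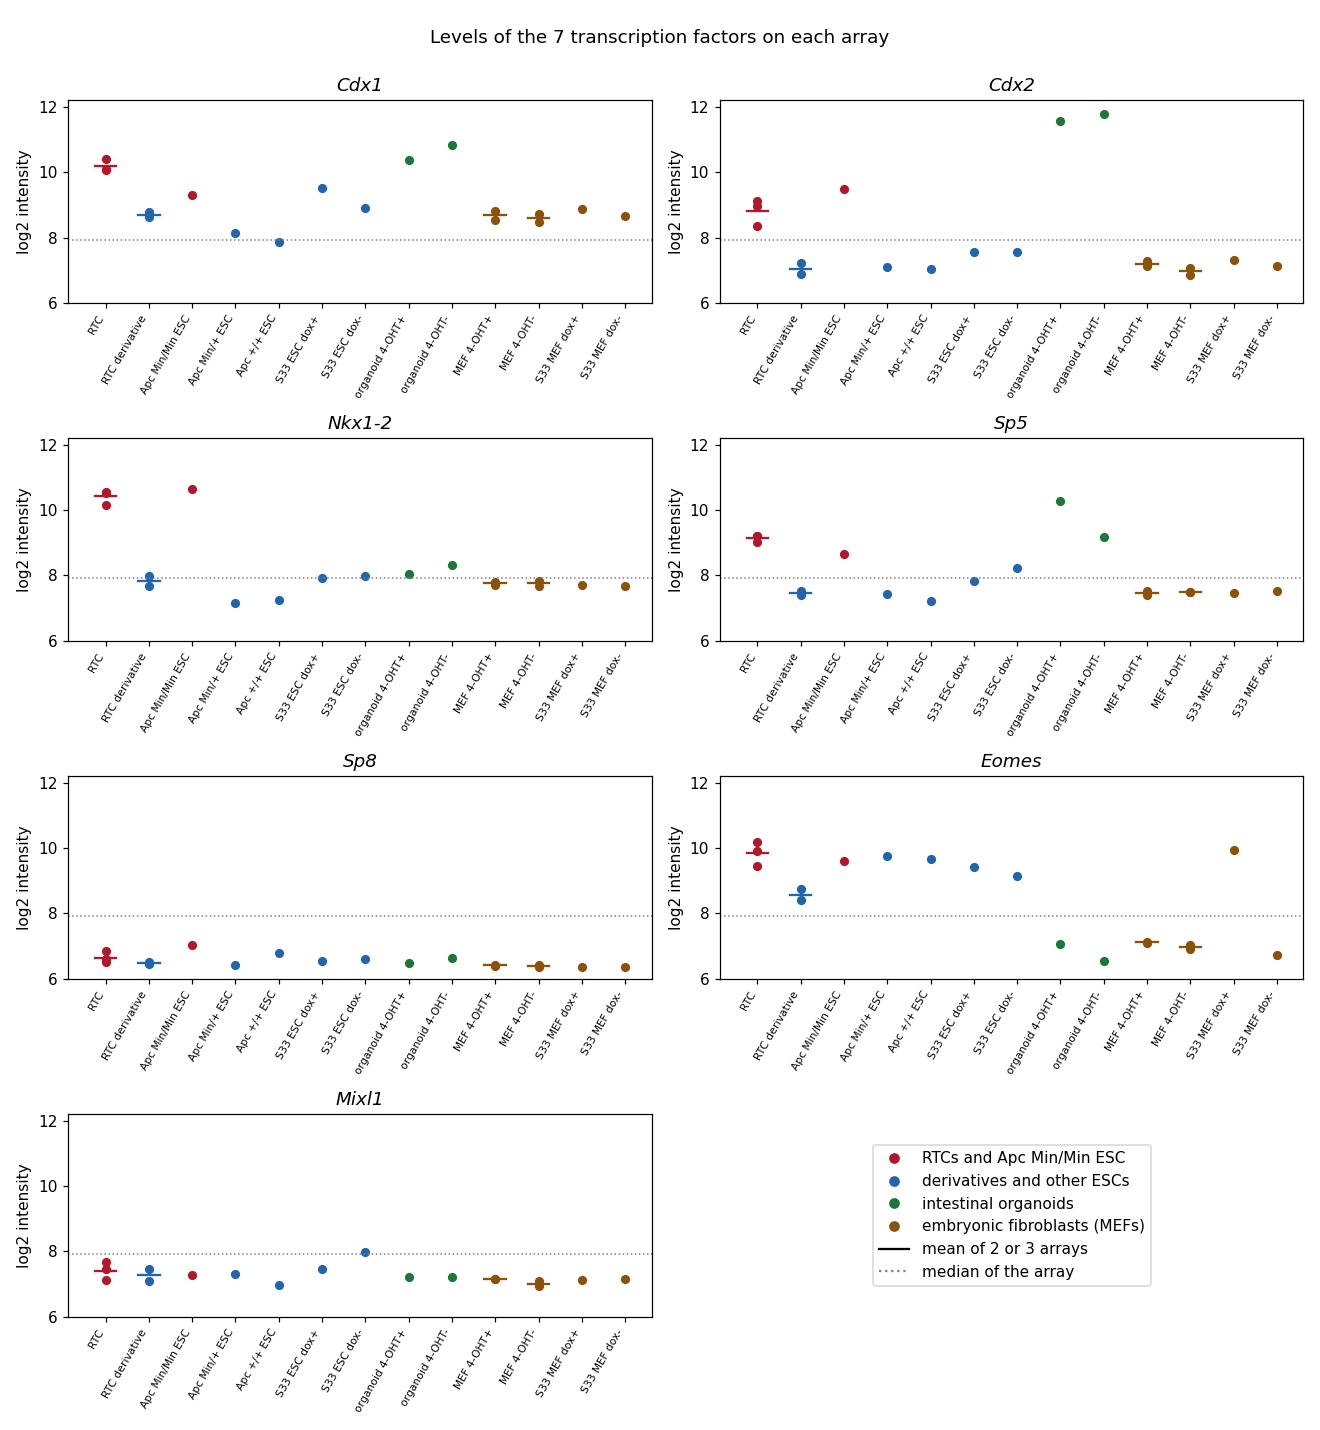
Log2 intensity of each factor (y axis) on all 18 arrays by sample type (x axis). Points are arrays, short lines are means of 2 or 3 arrays, and the dotted line is the array median of 7.93. Nkx1-2 is at 10.17 or above in RTCs and Apc Min/Min ESCs and at 8.31 or below on every other array, Cdx2 is highest in organoids, and Eomes is high in pluripotent cells and in S33 MEFs with dox.

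Whether the factors follow Apc state in pluripotent cells was asked by setting 4 Apc-mutant arrays (3 RTC lines and Apc Min/Min ESCs) against 5 Apc-competent arrays (derivatives #45 and #9, and ESCs that were Apc +/+, Apc Min/+ or S33 without dox). Cdx1, Cdx2, Nkx1-2 and Sp5 were higher in Apc-mutant cells, by 2.86-fold for Cdx1 and 2.76-fold for Sp5 and by 3.54-fold for Cdx2 and 7.3-fold for Nkx1-2. For each of these 4 factors every Apc-mutant array lay above every Apc-competent array. The share of all genes separated in this way was not counted. Eomes and Mixl1 did not pass the test, and Sp8 stayed under the median on all arrays and was not tested.

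Nkx1-2 read 10.17, 10.57 and 10.53 in RTC 1, 2 and 3 and 10.65 in Apc Min/Min ESCs, against 7.98 and 7.68 in #45 and #9 and 7.25, 7.17 and 7.98 in ESCs that were Apc +/+, Apc Min/+ and S33 without dox. All 4 Apc-mutant arrays lay in a narrow range, and the gap to the highest Apc-competent array was larger than the whole spread of either group. The log2 difference was 2.87 ± 0.20 (SE, n = 4 and 5, limma adjusted p = 8.8e-05), the third largest increase among 12360 genes tested.

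Cdx2 read 8.34, 8.98 and 9.12 in the RTC lines and 9.48 in Apc Min/Min ESCs, against 6.88 and 7.21 in the derivatives and 7.04, 7.10 and 7.56 in the ESC arrays, given in the same order. It was under the array median in all Apc-competent cells and above it in all Apc-mutant cells. The difference was 1.82 ± 0.22 (adjusted p = 0.00175). Its paralogue Cdx1 read 10.07, 10.11 and 10.40 in the RTC lines and 9.31 in Apc Min/Min ESCs, against 8.62 and 8.77 in the derivatives and 7.86, 8.13 and 8.90 in the ESCs. Here the Apc Min/Min array was the lowest of the 4, whereas for Cdx2 it was the highest. The difference of Cdx1 was 1.51 ± 0.26 (adjusted p = 0.0104).

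Sp5 read 9.04, 9.20 and 9.20 in the RTC lines and 8.65 in Apc Min/Min ESCs, against 7.40 and 7.52 in the derivatives and 7.21, 7.44 and 8.24 in the ESCs. S33 ESCs without dox had the highest level among Apc-competent cells for Sp5, as they had for Cdx1, Cdx2 and Mixl1. The difference of Sp5 was 1.46 ± 0.21 (adjusted p = 0.00412).

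Of the factors without a call, Eomes read 9.46, 9.90 and 10.18 in the RTC lines and 9.60 in Apc Min/Min ESCs, against 8.75 and 8.40 in the derivatives and 9.68, 9.76 and 9.15 in the ESCs. The groups overlapped: Apc +/+ and Apc Min/+ ESCs lay within the range of Apc-mutant cells, and the derivatives lay below all other pluripotent arrays. The difference was 0.63 ± 0.28 (adjusted p = 0.285), with a 95% interval of 0.01 to 1.26. Mixl1 ranged from 7.12 to 7.67 in Apc-mutant cells and from 6.97 to 7.97 in Apc-competent cells (0.02 ± 0.21, adjusted p = 0.976, interval -0.44 to 0.48). Sp8 ranged from 6.51 to 7.04 and from 6.42 to 6.78 in the same groups, with a difference of 0.19 and an interval of -0.11 to 0.49 in the fit without a filter. The highest Sp8 level of all arrays was that of Apc Min/Min ESCs.

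In this comparison 3.71% of 12360 genes were called, 1.63% as higher. A gene entered only if it was above the array median on at least 1 array, which 6 of the 7 factors were, and Cdx2 was so through the Apc-mutant arrays alone. With no filter the same 4 factors were called of 7, where 0.933% of 19938 genes were called higher. With cell origin (RTC or ESC) as a term the differences were 1.31 ± 0.23 for Cdx1, 1.96 ± 0.21 for Cdx2, 2.82 ± 0.22 for Nkx1-2 and 1.43 ± 0.23 for Sp5, all called. They were also called without the Apc Min/Min array, which leaves RTCs alone as Apc-mutant cells (1.74, 1.66, 2.81 and 1.59 in the same order). Of 4 neural markers 3 fell in Apc-mutant cells, where 2.07% of all genes tested fell. These were Neurod1, a neural differentiation factor (-2.48, adjusted p = 0.00813), Pax6 (-1.51, adjusted p = 0.011) and Tubb3 (-1.31, adjusted p = 0.000811). All 3 were above the array median through the Apc-competent arrays alone. The fourth, Sox1, was not called (-0.30, adjusted p = 0.639). The part of these markers in the result was not tested. The labels do not say that arrays of a group came from separate cultures, so p-values measure the spread between these samples, which may be technical.

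RTCs and their own derivatives give the closest pairs. In RTC 1 minus #45 the log2 differences were 1.44 for Cdx1, 1.46 for Cdx2, 2.19 for Nkx1-2 and 1.64 for Sp5. In RTC 3 minus #9 they were 1.63, 1.92, 2.85 and 1.68, so both lines gave the same direction for all 4. Eomes was 0.71 and 1.78 higher in RTC 1 and RTC 3 than in their derivatives, whereas Mixl1 (0.03 and 0.20) and Sp8 (0.05 and 0.07) differed little. Across 3 RTC and 2 derivative arrays the 4 factors were called, as were 1.6% of 11940 genes, 0.838% as higher. Cdx2 and Sp5 were above the array median through the RTC arrays alone. With no filter the same 4 of 7 were called (adjusted p = 0.0187 for Cdx1, 0.0345 for Cdx2, 0.00343 for Nkx1-2 and 0.00798 for Sp5), where 0.497% of 19938 genes were called higher. Eomes was not (1.27 ± 0.25, adjusted p = 0.0619), though it was when arrays were centred on their median (1.20, adjusted p = 0.048). Cdx1 lost its call without RTC 1, RTC 2 or RTC 3 (adjusted p = 0.0709, 0.0502 and 0.0885) and on the deposited scale (0.0512), and Cdx2 lost it without RTC 2, RTC 3, #45 or #9 (0.0673, 0.097, 0.0707 and 0.0765). Nkx1-2 and Sp5 kept their calls whichever of the 5 arrays was left out. Neurod1 was lower in RTCs here as well (-3.11, adjusted p = 0.00233).

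The Apc Min/Min array, set against the mean of the other 3 ESC arrays, had 3.18 more Nkx1-2, 2.25 more Cdx2, 1.02 more Sp5 and 1.01 more Cdx1 on the log2 scale. These 4 were at least 2-fold higher, where 10.5% of 11933 genes were at least 2-fold apart and 4.81% at least 2-fold higher (3.15% of 19938 genes with no filter). Cdx2 was above the array median on the Apc Min/Min array alone. Eomes (0.06) and Mixl1 (-0.13) were within 2-fold. With 1 array there is no test, and the differences of Cdx1 and Sp5 lay at the 2-fold line: they were 0.79 and 0.81 without the Apc +/+ array and 0.93 each without the Apc Min/+ array, and only Nkx1-2 and Cdx2 passed it on the deposited scale. This array also had 4.18 more Sox17, an endoderm factor, and 3.04 more Cyp26a1, the retinoic acid degrading enzyme of the tail bud. Both belong to a list of other streak and caudal genes, of which 20 passed the filter. At least 2-fold higher were 4 of the 20, where 4.81% of all genes were. Among these 4, Sox17, Cyp26a1 and Foxa2 were above the array median on the Apc Min/Min array alone. At least 2-fold lower were 2 of the 20, with Fgf17 (-1.14) among them, where 5.68% of all genes were. The median of the 20 was -0.12, against -0.07 over all genes. The mean of 6 mesoderm and endoderm markers was 9.34 on the Apc Min/Min array, against 7.23 to 7.56 in the other 3 ESC arrays. The 4 that passed the filter, Foxa2, Sox17, Gata4 and Gata6, were at least 2-fold higher. Foxa2 and Sox17 passed it through the Apc Min/Min array alone. The mesoderm markers Kdr and Mesp1 were under the array median. Kdr read 7.06, against 6.70, 6.81 and 7.13 in ESCs that were Apc +/+, Apc Min/+ and S33 without dox. Mesp1 read 6.05, against 6.13, 6.76 and 6.77. The mean of 6 immune markers was 9.38, against 8.28 to 8.53, with 3 of 5 at least 2-fold higher. Among these 3, Tyrobp and Fcer1g were above the array median on the Apc Min/Min array alone. The mean of 4 neural markers was 7.02, against 8.17 to 8.37, with 2 of 4 at least 2-fold lower. These 2, Neurod1 and Tubb3, were above the array median through the other ESCs alone. No count without a filter was made for these lists. The part of these markers in the result was not tested.

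Derivatives were also set against the 3 ESC arrays other than Apc Min/Min. None of the 5 factors tested was called, and neither was any of 11941 genes (0%), while 1012 genes had an unadjusted p under 0.05. The intervals of the difference were -0.36 to 1.16 for Cdx1, -0.32 to 1.04 for Nkx1-2, -0.92 to 0.59 for Sp5 and, without a filter, -0.71 to 0.33 for Cdx2. Eomes was the factor farthest apart, at 8.58 in the derivatives and 9.53 in the ESCs (-0.95 ± 0.25, adjusted p = 0.424, interval -1.54 to -0.37).

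In organoids Cdx1, Cdx2 and Sp5 were high with and without 4-OHT. Cdx2, the master regulator of intestinal identity, read 11.56 with and 11.79 without 4-OHT, above every other array. Cdx1 read 10.39 with and 10.85 without 4-OHT, a range that meets that of the RTC lines (10.07 to 10.40), whereas Cdx2 of RTCs and Apc Min/Min ESCs (8.34 to 9.48) stayed below that of organoids. Sp5 read 10.28 with and 9.17 without 4-OHT, so the organoids without 4-OHT were at the level of the RTC lines. Nkx1-2 was at 8.06 with and 8.31 without 4-OHT, below all Apc-mutant pluripotent arrays. Eomes was at 7.06 and 6.55, Mixl1 at 7.23 and 7.23 and Sp8 at 6.48 and 6.63, all under the array median.

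With 4-OHT, Sp5 was 1.11 higher in organoids, and no other factor was 2-fold apart. Of 11397 genes, 2.84% were at least 2-fold apart and 2.1% at least 2-fold higher, and Sp5 had the 195th largest increase. On the deposited scale the difference of Sp5 was 0.90, under 2-fold, and with arrays centred on the median it was 1.53. The differences of Cdx1 (-0.46) and Cdx2 (-0.23) were negative after quantile normalization, but were 0.01 and 0.22 with centred arrays, so they have no settled direction. That of Nkx1-2 was -0.24, and Eomes, which was 0.51 higher after quantile normalization, had deposited intensities of 77.8 with and 99.3 without 4-OHT. Each arm is 1 array, so none of these differences was tested.

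In the MEFs derived from #45 no factor was called with 4-OHT. Cdx1 read 8.82 and 8.55 with 4-OHT, against 8.47 and 8.71 without. Cdx2 read 7.27 and 7.12, against 6.86 and 7.07. Nkx1-2 read 7.81 and 7.71, against 7.83 and 7.68, and Sp5 read 7.40 and 7.53, against 7.50 and 7.50. The ranges with and without 4-OHT overlapped for Cdx1, Nkx1-2 and Sp5 and lay apart by less than 0.1 for Cdx2, for Eomes (7.10 and 7.13, against 6.92 and 7.02) and for Mixl1 (7.14 and 7.14, against 6.94 and 7.09). Cdx2, Eomes and Mixl1 were under the array median on each of these MEF arrays. How many of all genes lay apart in this way was not counted. Sp8 read 6.40 and 6.43, against 6.36 and 6.41. Only Cdx1 passed the filter (0.09 ± 0.15, limma adjusted p = 1), and limma called 0% of 11603 genes, with 519 at an unadjusted p under 0.05. Without a filter the 95% intervals were -0.28 to 0.29 for Nkx1-2, -0.30 to 0.23 for Sp5 and -0.11 to 0.57 for Cdx2. Axin2, the Wnt feedback gene used here as a readout of the pathway, read 8.53 and 8.81 with 4-OHT, against 8.55 and 8.63 without.

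Whether the difference between RTCs and derivatives is larger than the 4-OHT difference in MEFs was tested in 1 fit of both. The difference of differences was 2.59 ± 0.25 for Nkx1-2 (adjusted p = 0.00597) and 1.73 ± 0.19 for Sp5 (adjusted p = 0.00919), with 0.41% of 12934 genes called, 0.255% as higher. Axin2, the readout of the pathway, was called as well (1.90 ± 0.26, limma adjusted p = 0.0203), the 1 called of 10 Wnt feedback and reporter genes. Sp5 and Cdx2 were above the array median through the RTC arrays alone. With no filter the adjusted p was 0.00576 for Nkx1-2 and 0.00744 for Sp5, where 0.155% of 19938 genes were called higher. The difference of differences was 1.40 ± 0.25 for Cdx1 (adjusted p = 0.0678), 1.54 ± 0.35 for Cdx2 (adjusted p = 0.129) and 1.13 ± 0.32 for Eomes (adjusted p = 0.226), none of them called. With a block for the RTC line, chosen after the data were seen, which pairs RTC 1 with #45 and RTC 3 with #9, neither factor was called (2.51, adjusted p = 0.0613 for Nkx1-2 and 1.70, adjusted p = 0.0539 for Sp5), and neither was on the deposited scale (adjusted p = 0.113 and 0.37). Sp5 lost its call without any one of the 4 MEF arrays (adjusted p = 0.0562 to 0.0716). The contrasts differ in more than cell type, since derivatives are cell lines and 4-OHT was given for 2 days.

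Dox was given to S33 cells, taken here as the cells in which mutant beta-catenin was induced, since the series text names such induction for the same cell types. In S33 MEFs Eomes read 9.95 with and 6.72 without dox, a log2 difference of 3.22 or 9.32-fold, the 10th largest increase among 11390 genes, of which 6.22% were at least 2-fold apart and 2.5% at least 2-fold higher. Eomes was above the array median through the array with dox alone. Without a filter it was again the 10th largest, among 19938 genes of which 1.49% were at least 2-fold higher. Deposited intensities were 912 with and 112 without dox. That level lay within the range of the RTC lines (9.46 to 10.18), whereas the other 5 MEF arrays were at 6.72 to 7.13. Cdx1 read 8.88 with and 8.66 without dox, Cdx2 7.30 and 7.12, Nkx1-2 7.71 and 7.67, and Sp5 7.47 and 7.51, each within 0.22 of its level without dox. The 6 immune markers averaged 7.10 with and 7.21 without dox, the lowest levels of all arrays, and Ptprc, the common leukocyte antigen, read 6.28 and 6.43. The part of immune cells in the Eomes result was not tested.

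In S33 ESCs no factor was 2-fold apart with dox, where 3.16% of 11254 genes were. Cdx1 read 9.52 with and 8.90 without dox, a difference of 0.61. Sp5 read 7.83 with and 8.24 without dox, and Mixl1 7.45 with and 7.97 without dox. Nkx1-2 (7.92 and 7.98), Cdx2 (7.55 and 7.56) and Eomes (9.41 and 9.15) differed by 0.26 or less. With a single array in each arm, no S33 difference could be tested.

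**Figure D2:**
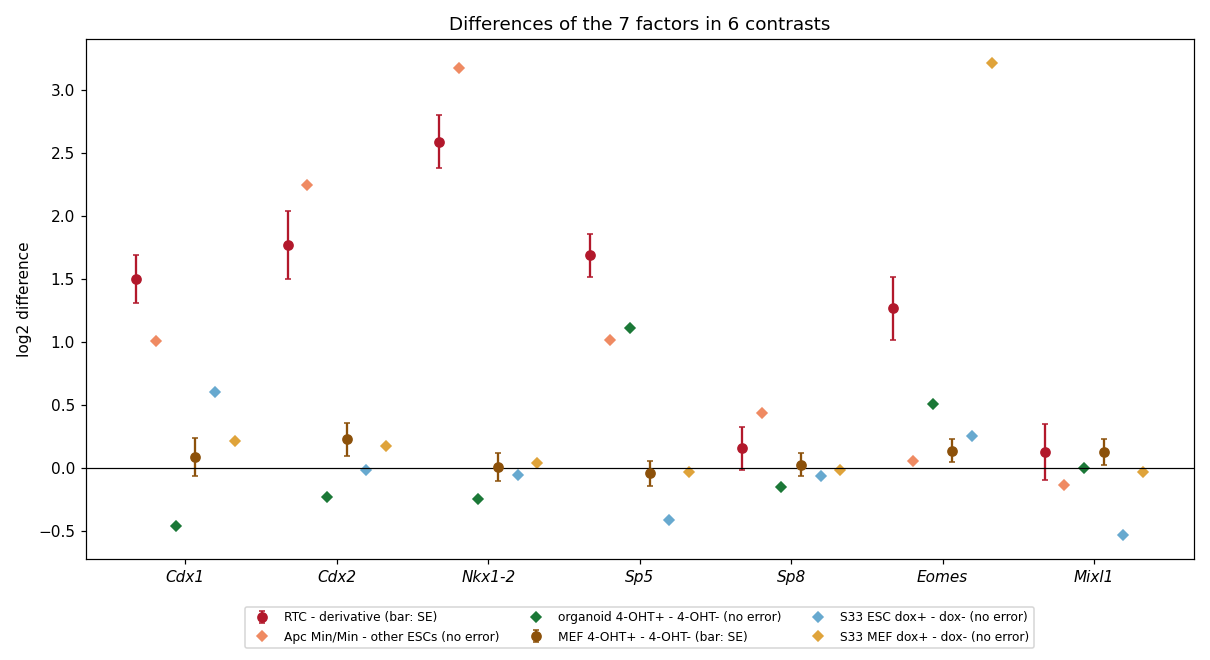
Log2 difference of each factor (y axis) in 6 contrasts, for the 7 factors along the x axis. Bars are standard errors for the contrasts with replicate arrays, and diamonds rest on 1 array in an arm and carry no error. Nkx1-2 is 2.59 and 3.18 higher in RTCs and Apc Min/Min ESCs and within 0.24 of 0 in the other contrasts, Sp5 is 1.11 higher in organoids with 4-OHT, and Eomes is 3.22 higher in S33 MEFs with dox.

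Cell types were compared as well. In organoids against MEFs of #45 (2 and 4 arrays, 4-OHT as a term), Cdx2 was 4.59 ± 0.15 higher (adjusted p = 7.89e-06), Sp5 2.24 ± 0.26 higher (adjusted p = 0.00087) and Cdx1 1.98 ± 0.17 higher (adjusted p = 0.000286). These cell types differ broadly, with 64.6% of 12995 genes called, 32.4% as higher. Cdx2, Sp5 and Nkx1-2 were above the array median through the organoids alone. With no filter 24.1% of 19938 genes were called higher, Cdx1, Cdx2, Sp5 and Nkx1-2 among them (adjusted p = 0.000256, 5.16e-06, 0.000815 and 0.023). Nkx1-2 was 0.43 ± 0.11 higher (adjusted p = 0.0179), but -0.17 on the deposited scale, so its direction is not settled, and its call was lost without the organoid array without 4-OHT (adjusted p = 0.121) and without the second MEF array with 4-OHT (adjusted p = 0.0527). In MEFs without treatment (3 arrays) against Apc-competent pluripotent cells (5 arrays), Eomes was 4.79-fold lower (-2.26 ± 0.30, adjusted p = 0.000189). Of 12851 genes 61.9% were called, 30% as lower. Eomes was above the median through the pluripotent cells alone, and with no filter its adjusted p was 0.000244, where 20% of 19938 genes were called lower. Cdx1 (interval -0.38 to 0.70), Nkx1-2 (-0.36 to 0.60), Sp5 (-0.54 to 0.43) and Mixl1 (-0.79 to 0.18) were not called, and Cdx2 was not tested (7.02 in MEFs and 7.16 in pluripotent cells on average).

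By order of level, Cdx2 ran from organoids through Apc Min/Min ESCs and RTCs to all other cells, where derivatives, ESCs and MEFs spanned 6.86 to 7.56 and could not be ordered beyond their spread. Cdx1 ran from organoids and RTCs, whose ranges met, through S33 ESCs with dox and Apc Min/Min ESCs to the rest at 7.86 to 8.90. Nkx1-2 stood at 10.17 to 10.65 in the 4 Apc-mutant arrays and at 7.17 to 8.31 in the other 14. Sp5 was highest in organoids with 4-OHT, followed by RTCs and organoids without 4-OHT at 9.04 to 9.20, Apc Min/Min ESCs at 8.65 and all others at 7.21 to 8.24. Eomes split the arrays into pluripotent cells with S33 MEFs with dox (8.40 to 10.18) and the other cells (6.55 to 7.13). The share of genes at or below the level of Nkx1-2 within an array was 76.0% to 82.3% in Apc-mutant pluripotent cells, against 45.7% and 41.9% in #45 and #9. For Cdx2 it was 91.7% in organoids with and 93.6% in organoids without 4-OHT. Mixl1 spanned 6.94 to 7.97 and Sp8 6.35 to 7.04 over all 18 arrays.

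The related genes of the streak, the Wnt feedback loop, the gut and the trophoblast were examined as lists. Of 26 other streak and caudal genes on the arrays, 20 were tested by Apc state in pluripotent cells, 1 rose and 0 fell, where 1.63% of all genes tested rose and 2.07% fell. The one was the ligand Wnt5b (0.57 ± 0.12, adjusted p = 0.0294), and the list's median was 0.02, against -0.03 over all genes tested. Between RTCs and derivatives 1 of 15 rose, where 0.838% of all genes did, the signalling ligand Bmp4 (1.77, adjusted p = 0.0317). Fgf8, the growth factor of the tail bud, read 8.29, 8.46 and 8.75 in RTCs and 7.94 in Apc Min/Min ESCs, against 8.60 and 8.63 in derivatives and 7.92, 8.31 and 9.99 in the ESC arrays in the order used above. Cdx4, the third caudal factor, was under the median on all arrays, at 5.09 to 6.83. T, the brachyury gene, has no probe set under a single symbol here.

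Among 10 Wnt feedback and reporter genes 2 rose with Apc mutation in pluripotent cells and 0 fell, where 1.63% of all genes rose. Axin2 rose by 1.95 ± 0.19 (adjusted p = 0.000441) and the receptor ligase gene Rnf43 by 0.87 ± 0.18 (adjusted p = 0.0238), and the median of the list was 0.40. Rnf43 was above the array median through the Apc-mutant arrays alone. No count without a filter was made for this list. In S33 MEFs with dox 7 of the 10 were at least 2-fold higher and 1 lower, where 2.5% of all genes were higher and 3.71% lower, with Notum, a secreted Wnt inhibitor, 3.29 higher and Axin2 at 11.27 with and 8.60 without dox. Among the 7, Notum, Rnf43 and Lef1 were above the array median through the array with dox alone. These MEFs had Sp5, Nkx1-2, Cdx1 and Cdx2 within 0.22 of their level without dox. In organoids with 4-OHT, Nkd1 (2.08) and Notum (1.04) were at least 2-fold higher of 9 genes, where 2.1% of all genes were, and Axin2 read 11.81 with and 11.30 without 4-OHT. Notum was above the array median through the organoid array with 4-OHT alone. In S33 ESCs with dox 0 of 8 were at least 2-fold higher and 2 lower, Lef1 (-2.59) and Myc, where 2.18% of all genes were lower, and Axin2 read 9.35 with and 9.14 without dox.

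**Figure D3:**
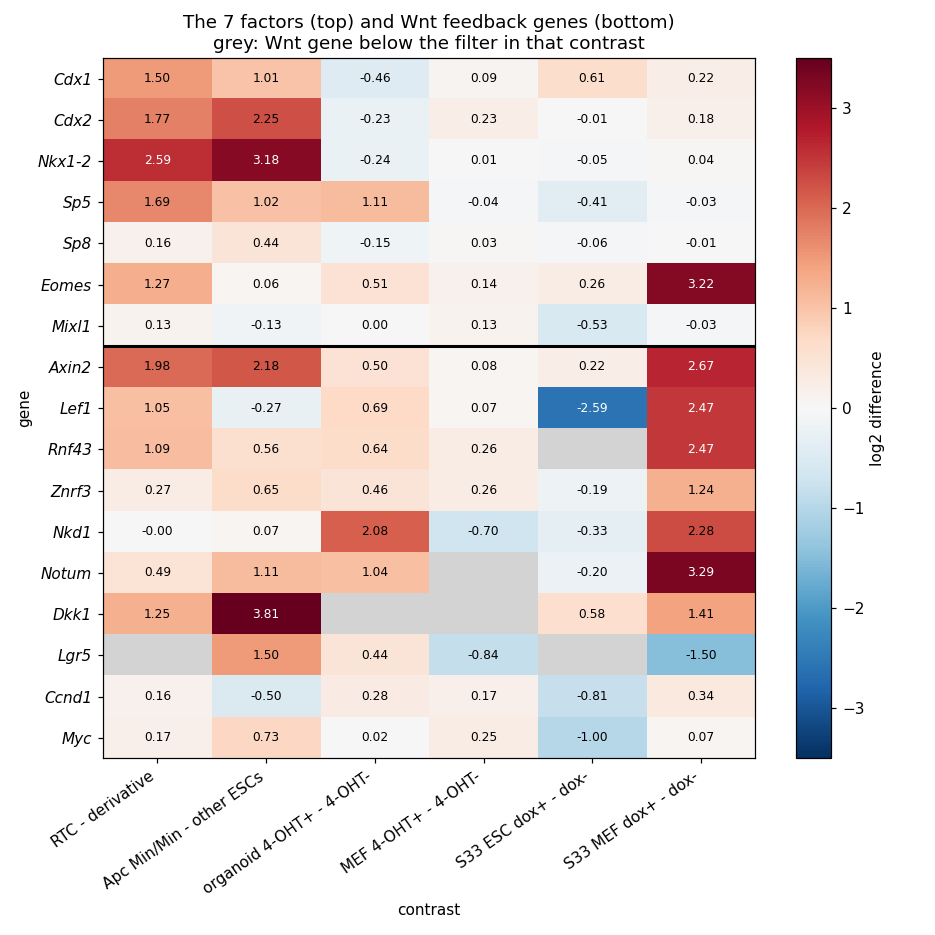
Log2 differences of the 7 factors (top rows) and 10 Wnt feedback and reporter genes (bottom rows) in 6 contrasts (columns). Red is higher and blue lower, and grey marks Wnt genes below the filter in that contrast. Axin2 is 1.98, 2.18 and 2.67 higher in RTCs, Apc Min/Min ESCs and S33 MEFs with dox, while Nkx1-2 is 2.59, 3.18 and 0.04 higher in the same contrasts.

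Genes of intestinal epithelium that are linked to Cdx factors were mostly under the array median in pluripotent cells. Of 11 such genes 3, 2 and 2 were above it in RTC 1, 2 and 3 and 2 in Apc Min/Min ESCs, against 1 each in #45 and #9, and 10 were in organoids. Their mean was 7.19 to 7.26 in RTCs and Apc Min/Min ESCs, against 6.98 to 7.20 in Apc-competent pluripotent cells without dox, and 11.67 to 11.70 in organoids. Only 3 of the 11 entered the test by Apc state and 1 rose, where 1.63% of all genes did, the nuclear receptor Hnf4a (0.90 ± 0.14, adjusted p = 0.00607). Hnf4a was above the array median through the Apc-mutant arrays alone, and no count without a filter was made for this list. Between RTCs and derivatives 0 of 3 were called, and Hnf4a did not pass (0.93 ± 0.19, limma adjusted p = 0.066). Of the list for trophoblast, a lineage in which Cdx2 and Eomes also act, 11 of 12 genes were tested by Apc state. Of these 1 rose and 2 fell, where 1.63% of all genes rose and 2.07% fell, and the list's median was -0.23. Gata2 rose (0.85 ± 0.18, adjusted p = 0.0293), while Tfap2c (-1.37 ± 0.18, adjusted p = 0.00243) and the receptor Fgfr2 (-1.42 ± 0.29, adjusted p = 0.0234) fell. In Apc Min/Min against other ESCs 0 of 11 were at least 2-fold higher and 3 lower, where 4.81% of all genes were higher and 5.68% lower. Among these 3, Gata3 and Ascl2 were above the array median through the other ESCs alone.

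**Figure D4:**
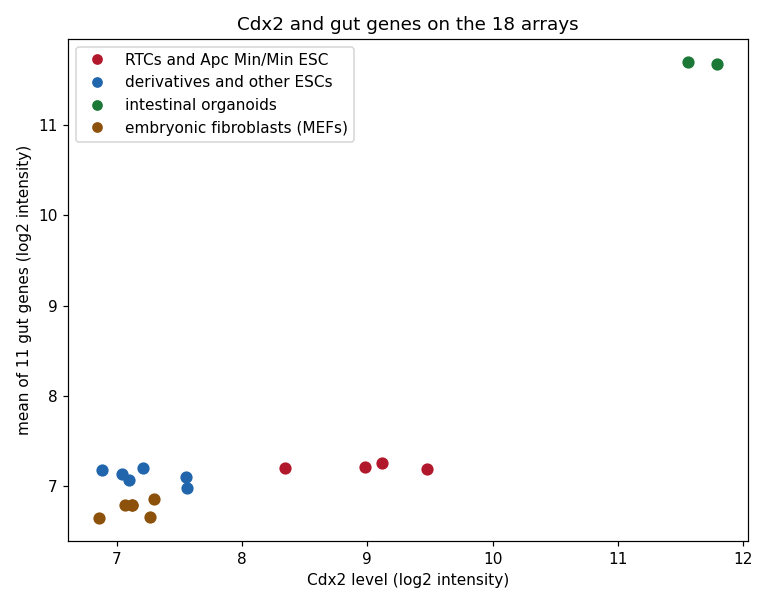
Level of Cdx2 (x axis, log2 intensity) against the mean of 11 gut genes linked to Cdx factors (y axis, log2 intensity) on the 18 arrays, 1 point each. RTCs and Apc Min/Min ESCs have Cdx2 at 8.34 to 9.48 with gut genes at 7.19 to 7.26, whereas organoids have Cdx2 at 11.56 and 11.79 with gut genes at 11.70 and 11.67.

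The genes most alike in pattern were sought over the 10 pluripotent arrays, among genes above the array median on at least 1 of them, by Pearson's r. The arrays share their grouping into Apc-mutant and Apc-competent cells, so these values describe and do not test. Sp5 was most like Rnf43 (r = 0.974), Slc30a2 (0.961) and Pax8 (0.949). Nkx1-2 was most like Nkx6-2 (0.969), Pax8 (0.966) and Il6ra (0.966), and Cdx2 most like Il6ra (0.973), Plagl1 (0.963) and Flvcr2 (0.962). Cdx1 was most like Frmd4b (0.958), Slc35g1 (0.944) and Bhmt2 (0.941). For Eomes they were Prr13 (0.947), Rab6b (0.941) and Qars (0.928), for Mixl1 Kcng1 (0.92), Lrrn2 (0.905) and Foxp4 (0.902), and for Sp8 Pdia3 (0.955), Tmprss2 (0.923) and Hoxc9 (0.907). Sp8 was under the array median on all 10 arrays, and its rank correlations (Spearman) with these genes were 0.709, 0.903 and 0.648. Among the factors themselves, r was 0.783 to 0.955 between any 2 of Cdx1, Cdx2, Nkx1-2 and Sp5, and 0.383 to 0.582 between these 4 and Eomes.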

How the data were processed

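Total RNA was biotin labelled for Affymetrix arrays, per the labels' protocols. The deposited values are linear probe set intensities, 28856 per array. The authors' background correction, probe summary and array scaling are not given in the sources used here. Probe sets without values (3) were left out, intensities were put on the log2 scale and all 18 arrays were quantile normalized together. In the platform annotation 21789 probe sets had a single symbol, 1621 had several and 5443 had none. The probe set with the highest mean stood for a gene.

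Tests were two-sided moderated tests of limma 3.58.1 (R 4.3.3). Genes above the array median (percentile 50) on at least 1 array compared were tested, and a gene was called at a Benjamini-Hochberg adjusted p under 0.05. The fits were tested on simulated data. Contrasts with 1 array in an arm were not tested, and 2-fold changes were counted. RTC and derivative arrays, and ESC arrays, enter several comparisons. Symbols were checked by Entrez identifier against RefSeq genes of GRCm38.p6, where 21698 matched.

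Derivatives come from named RTC lines, which pairs RTC 1 with #45 and RTC 3 with #9 (correlation of their deviations from the group means 0.104 and 0.0254). Named genes were the 7 members everywhere, Axin2, Lef1, T, Fgf8 and Cdx4, up to 4 called genes per list and comparison, and the 3 genes most alike in pattern. Ptprc, Neurod1, Pax6, Tubb3, Sox1, Foxa2, Gata4, Gata6, Kdr, Mesp1, Tyrobp and Fcer1g were named after their values were seen. The members and lists were chosen with earlier results of these data known. Alternatives were other scales, no filter, the mean of probe sets, a trend, blocks or terms, and leaving out each array.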

Additional observations from a re-analysis of the deposited data

Results flagged for a closer look

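Nkx1-2 and Sp5 differed more between RTCs and derivatives than between MEFs with and without 4-OHT, by a test of the difference itself. The difference of differences was 2.59 ± 0.25 for Nkx1-2 (limma adjusted p = 0.00597) and 1.73 ± 0.19 for Sp5 (adjusted p = 0.00919). For each gene all 3 RTC arrays lay above both derivative arrays, but the share of all genes separated in this way was not counted. Neither gene was called when the RTC line was a block, and neither was on the deposited scale. Axin2, the readout of the Wnt pathway, was also called in the main fit of this contrast (1.90 ± 0.26, limma adjusted p = 0.0203).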

How the results depend on the processing

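By Apc state in pluripotent cells, Cdx1, Cdx2, Nkx1-2 and Sp5 were called under each of 16 alternatives, including each of 9 arrays left out, with differences of 1.31 to 1.85, 1.66 to 2.04, 2.76 to 2.97 and 1.37 to 1.76. The number of factors called between RTCs and derivatives was 4, and 2 to 3 with an array left out. The replicate block by line of origin called the same 4 (1.54 for Cdx1, 1.69 for Cdx2, 2.52 for Nkx1-2 and 1.66 for Sp5). For the difference between pluripotent cells and MEFs the count was 2, but 0 as deposited, 0 with the replicate block by line and title number (adjusted p = 0.116 for Nkx1-2 and Sp5) and 1 to 3 with an array left out. Of 2 alternatives chosen after seeing the data, the replicate block by line alone gave 0, and leaving out RTC 1 with #45 gave 5. In MEFs with 4-OHT the replicate block by title number called 148 genes, against 0 without it, and none of the factors. Arrays with the same title number deviated together (r = 0.855), but the labels do not say that the number pairs them. For Apc Min/Min against other ESCs, 4 factors were at least 2-fold apart, 2 as deposited and 2 to 4 with an array left out. For organoids with 4-OHT it was 1, and 0 as deposited. The cause of these changes was not tested. Counts over all genes moved more: 458 by Apc state, but 186 as deposited and 226 to 510 with an array left out, 191 between RTCs and derivatives, but 81 as deposited and 33 to 383, and 0 between derivatives and ESCs, but 11 as deposited. For pluripotent cells against MEFs the count of 53 was 3 as deposited, 0 and 5 with the 2 blocks, 1327 without RTC 1 and #45 and 17 to 369 with an array left out. For organoids with 4-OHT 324 genes were 726 as deposited and 613 with centred arrays.

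Values near 0 changed sign in uncalled results. Mixl1 by Apc state was -0.08 to 0.11 with an array left out, and -0.36 to 0.05 for derivatives against ESCs. Cdx1 with 4-OHT in MEFs was -0.05 to 0.23, Sp5 in MEFs against pluripotent cells 0.08 as deposited, and the called Nkx1-2 in organoids against MEFs -0.17 as deposited. Lone arrays in an arm are assumed to vary like the others. Factors under the array median may sit near background, where array signal limits what can be seen.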

Other observations

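In S33 MEFs with dox, where Eomes was 3.22 higher, Mixl1 read 7.12 with and 7.14 without dox, and 0 of 9 streak and caudal genes that passed the filter were at least 2-fold higher while 1, the receptor Pdgfra (-1.31), was lower, where 3.71% of all genes were. Bmp4 read 12.67 with and 12.22 without dox in the same cells. In S33 ESCs with dox the streak ligand Wnt8a (-1.51) and Fgf8 (-1.25) were lower, which makes 2 of 15 streak genes, where 2.18% of all genes were lower, and 0 of 15 were higher. Wnt8a was above the array median through the array without dox alone.

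Sox17 read 8.37 with and 6.99 without 4-OHT in organoids, 6.54, 9.01 and 8.10 in RTC 1, 2 and 3, and 10.93 in Apc Min/Min ESCs, so the RTC lines differed from each other more for this gene than for any of the 4 factors that followed Apc state.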
